A study of Caenorhabditis elegans with 3 samples.

Results

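The genes described here encode the pyruvate dehydrogenase complex and enzymes of the citric acid cycle, 10 genes out of 19973 nuclear protein-coding genes in the Ensembl annotation of WBcel235. They were selected on a measured value: dld-1, which encodes dihydrolipoamide dehydrogenase, has a promoter peak among the 25 strongest in a binding map of tagged R02D3.7, the product of rcat-1 and a protein with a C2H2-type domain. The other 9 were added because their products work in the same complexes or the same cycle: pdha-1, pdhb-1 and dlat-1 of pyruvate dehydrogenase, ogdh-1 and dlst-1 of oxoglutarate dehydrogenase, and cts-1, aco-2, fum-1 and mdh-2 of the cycle. The dld-1 peak is therefore a description of how the list was made, and no test was applied to it or to any count of these genes.

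The data are chromatin immunoprecipitation with sequencing (ChIP-seq) from whole Caenorhabditis elegans at the fourth larval stage (L4), labelled as a pool of both sexes and of unknown age. All 3 libraries are biological replicates of 1 group, from the strain OP218, which carries the mutation unc-119(ed3) on chromosome III and the insertion wgIs218. The label of replicate 3 describes a GFP-FLAG tag at the C-terminus of R02D3.7. Fragment sizes are labelled for replicates 1 and 2, which came from a stock centre, whereas for replicate 3 the label gives microtip sonication and names a laboratory as its source. There is no second condition, so no groups were compared. A library from whole larvae mixes all tissues, so weak occupancy in many cells and strong occupancy in few cells cannot be told apart.

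Pyruvate dehydrogenase is a mitochondrial complex that turns pyruvate into acetyl-CoA, the fuel of the citric acid cycle. Its E1 subunits (pdha-1, pdhb-1) decarboxylate pyruvate, its E2 subunit (dlat-1) passes the acetyl group to coenzyme A on a lipoyl arm, and its E3 subunit (dld-1) reoxidises that arm. E3 is shared: the same dihydrolipoamide dehydrogenase serves oxoglutarate dehydrogenase inside the cycle, the branched-chain ketoacid dehydrogenase and the glycine cleavage system. A gene for E3 thus belongs to several pathways at once.

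A peak was assigned to a promoter when its summit fell in a window reaching 1000 bp upstream and 200 bp downstream of an annotated transcript start. Peaks were ranked within a list by the signal that the authors' caller gave, with rank 1 the strongest, and signals were not compared between lists. The thresholded list held 390 peaks, the pooled list 11533, and the lists of replicates 1, 2 and 3 held 27624, 28357 and 30000. The pooled and replicate lists were deposited as peaks and background together, and most of their entries are weak: the deposited −log10 q was above 2 for 827 pooled peaks (7.17% of the list) and for 3.99% to 6.65% of the peaks of a replicate.

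The sequences under 6 summits are printed: the 4 thresholded sites of the pathway (dld-1, mpc-1, sdhb-1 and gcst-1, of which gcst-1 holds none of the words searched) and 2 weaker ones, at aco-2 and cts-1. Each spans 60 bp on either side of the summit of the gene's strongest pooled peak in ce11 and is written in the direction of the gene, but at gcst-1 the first 38 bases, in the last exon of peli-1 upstream, are left out. Capitals mark matches on either strand to CGTAAA and its longer form CGTAAATC, to CGACAC and to ACACTC, and to the longer word CGACACTC. CGTAAA lies within CGTAAATC, and CGACAC and ACACTC overlap within CGACACTC. The first 4 came from earlier work on these same peaks, and CGACACTC was added after the dld-1 sequence had been seen.
dld-1, chrIV:14464233-14464353, plus strand: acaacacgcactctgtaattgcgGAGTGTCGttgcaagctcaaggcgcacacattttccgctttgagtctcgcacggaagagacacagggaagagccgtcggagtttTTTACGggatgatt
mpc-1, chrIII:4412751-4412871, plus strand: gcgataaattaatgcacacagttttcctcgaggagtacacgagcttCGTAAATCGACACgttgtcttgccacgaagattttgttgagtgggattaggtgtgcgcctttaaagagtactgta
sdhb-1, chrII:9352824-9352944, minus strand: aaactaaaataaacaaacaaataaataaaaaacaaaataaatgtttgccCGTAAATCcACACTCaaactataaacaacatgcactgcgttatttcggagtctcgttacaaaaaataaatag
gcst-1, chrV:5712337-5712419, plus strand: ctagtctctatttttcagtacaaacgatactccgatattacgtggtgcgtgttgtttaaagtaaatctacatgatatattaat
aco-2, chrIII:7974012-7974132, plus strand: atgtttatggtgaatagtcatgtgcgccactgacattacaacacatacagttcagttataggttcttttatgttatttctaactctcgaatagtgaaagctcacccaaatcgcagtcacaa
cts-1, chrIII:10216862-10216982, minus strand: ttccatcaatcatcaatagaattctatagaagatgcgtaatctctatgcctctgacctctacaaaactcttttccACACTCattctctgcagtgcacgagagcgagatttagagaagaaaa

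Among the 10 genes, dld-1 had a peak in the thresholded list and the other 9 did not. Of all nuclear protein-coding genes, 399 had a thresholded promoter peak (2.00%). The dld-1 gene (WBGene00010794) lies on the plus strand of chromosome IV from 14464517 to 14469136. Its peak spans 14464071 to 14464496, with a summit at 14464293, 224 bp upstream of the gene's first start. It ranked 18th in the pooled list with a signal of 304 and a −log10 q of 2.93, the highest value in that list and shared by 428 of its peaks. The pooled peaks at ranks 25 and 26, on either side of the limit that chose dld-1, had signals of 272 and 267.

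The dld-1 peak also ranked high in each library. The pooled and thresholded lists were made from these same 3 libraries, so the values below are not independent of the choice of dld-1. The peak ranked 24th in replicate 1 with a signal of 116, 24th in replicate 2 with a signal of 71.1, and 15th in replicate 3 with a signal of 120. Its −log10 q was 3.2, 2.85 and 3 in replicates 1, 2 and 3. These are the highest values of the 3 lists, shared by 788, 351 and 497 peaks. The 3 summits lay 237, 246 and 211 bp upstream of the start, a spread of 35 bp. The median spread was 49 bp over the 394 protein-coding genes with a thresholded peak and a peak in every replicate list, and 449 bp over all 2965 genes with a peak in every replicate list. Spread between summits was chosen as a measure after the values had been seen.

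The dld-1 summit also lies 27 bp inside LLC1.120 (WBGene00201403), an ncRNA gene on the opposite strand from 14464238 to 14464320. The LLC1.120 start is the nearest of those searched, which did not include piRNA genes. No other gene searched has the summit in its promoter window. The next protein-coding gene upstream, nspg-9, lies on the same strand and ends 418 bp before dld-1 starts. Replicate 2 alone had a second promoter peak close by, 43 bp upstream of the start, with a signal of 18.1 and rank 225. The gene has a second annotated start inside it, at which the peaks were weak: rank 9550 of the pooled list at 589 bp upstream of that start, rank 2273 in replicate 2, rank 7761 in replicate 3 and no peak in replicate 1.

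**Figure D1:**
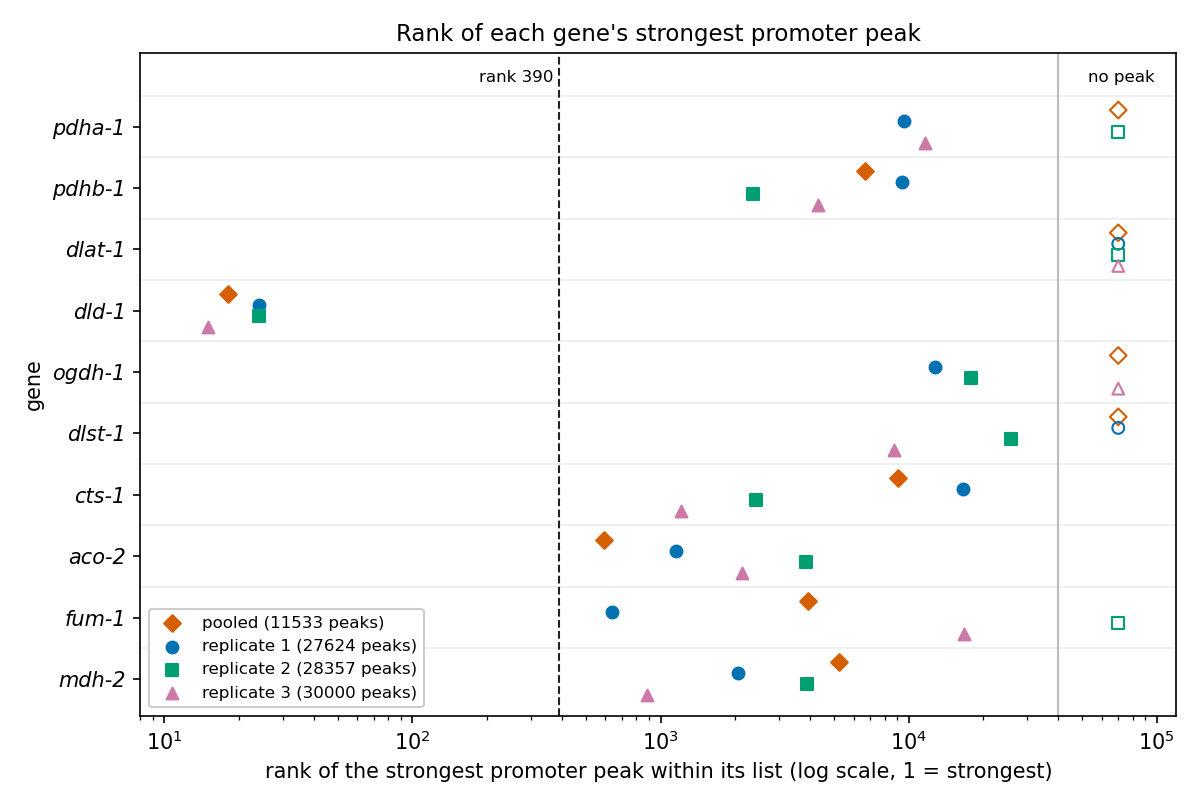
Rank of the strongest promoter peak of each gene in the pooled list and the 3 replicate lists, on a log axis where 1 is the strongest, with open symbols at the right for lists in which the gene had no promoter peak. The dashed line marks rank 390, the length of the thresholded list. The dld-1 points lie between ranks 15 and 24, and every other point lies at rank 590 or beyond.

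The E1 and E2 genes of pyruvate dehydrogenase had weak promoter peaks or none. The gene for the E1 alpha subunit, pdha-1, had no pooled promoter peak. It had weak peaks in replicate 1, with a signal of 5.16 at rank 9579, and in replicate 3, with a signal of 4.06 at rank 11667, and none in replicate 2. The replicate 1 summit falls in the 3' UTR of ufd-2, whose end lies 91 bp upstream. pdhb-1, for E1 beta, had a pooled peak at rank 6679 of 11533 with a signal of 12.4 and a −log10 q of 0.136. That summit lies 369 bp upstream of pdhb-1 but 72 bp upstream of dyf-3, a gene of sensory cilia on the opposite strand, which is the nearer start.

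In the replicates, pdhb-1 ranked 9367th in replicate 1, 2368th in replicate 2 and 4298th in replicate 3. The summits of replicates 1 and 3 lay 379 and 372 bp upstream, whereas that of replicate 2 lay 864 bp upstream in the 5' UTR of dyf-3. The E2 gene dlat-1 had no promoter peak in any of the 5 lists. Its nearest pooled summit was 2503 bp downstream of its start, and its nearest replicate summits were 729 to 2472 bp downstream. The subunit genes of 1 complex therefore ranged from rank 18 in the pooled list at dld-1 to no entry at pdha-1 and dlat-1.

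Both genes for oxoglutarate dehydrogenase, which shares its E3 with pyruvate dehydrogenase, lacked a pooled promoter peak. Most protein-coding genes lacked one too, since 21.6% of them had a pooled promoter peak. ogdh-1, for the E1 subunit, had peaks at rank 12821 in replicate 1 and rank 17916 in replicate 2, with signals of 4.55 and 3.54, and none in replicate 3. Their summits lay on opposite sides of a start, 536 bp upstream and 78 bp downstream. dlst-1, for the E2 subunit, had peaks at rank 25782 in replicate 2 and rank 8761 in replicate 3, with signals of 2.79 and 4.58, and none in replicate 1. The strongest of these 4 had a −log10 q of 0.633.

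The genes for 4 enzymes of the cycle, all on chromosome III, each had a pooled promoter peak below the authors' threshold. Of all nuclear protein-coding genes, 21.6% had a pooled promoter peak, and no test was applied. aco-2, for mitochondrial aconitase, which isomerises citrate, had the strongest, with a signal of 28.7, rank 590 and a −log10 q of 2.37. The weakest thresholded peak, at rank 390, had a signal of 35.6. aco-2 ranked 1153rd in replicate 1, 3848th in replicate 2 and 2125th in replicate 3, with −log10 q values of 2.41, 0.921 and 1.92. The summits of the pooled list and of replicates 1 and 2 lay 286 to 362 bp upstream of an internal start, in an intron of the longer transcripts, and that of replicate 3 lay at another start, 34 bp upstream. Measured from the outermost start of the gene, the pooled summit lies 355 bp downstream, outside the promoter window. It also lies 686 bp upstream of eef-1B.1, a divergent gene whose window includes it.

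fum-1, for fumarase, which hydrates fumarate to malate, differed most between libraries. Its peak ranked 640th in replicate 1 with a signal of 13.4 and a −log10 q of 3.2, the value that 788 peaks of that list share. In replicate 3 it ranked 16743rd with a signal of 3.4, and in replicate 2 the window held no summit, the nearest lying 420 bp downstream of the start. The pooled peak, 260 bp upstream, ranked 3919th with a signal of 14.7. The ncRNA gene H14A12.8 has the pooled summit in its window too, 439 bp upstream of its start.

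mdh-2, for mitochondrial malate dehydrogenase, had a pooled peak at rank 5263 with a signal of 13.5 and a −log10 q of 0.216. It ranked 2056th, 3893rd and 883rd in replicates 1, 2 and 3. The summits of replicates 1 and 3 lay 213 and 293 bp upstream, in the space shared with the divergent gene F20H11.4, and the replicate 2 summit lay 105 bp downstream in an intron of mdh-2. The pooled summit is 255 bp from the start of mdh-2 and 261 bp from that of F20H11.4, so it is shared almost evenly.

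cts-1, for citrate synthase, which joins acetyl-CoA to oxaloacetate, had a pooled peak at rank 9080 with a signal of 11.2, close to the lowest signal of that list, 10.3. It ranked 16581st in replicate 1, 2432nd in replicate 2 and 1207th in replicate 3, where its −log10 q was 2.27. The 3 summits lay 170, 609 and 410 bp upstream, a spread of 439 bp. The spreads of pdhb-1, mdh-2 and aco-2 were 492, 398 and 338 bp, against 35 bp at dld-1. Whether the wide spreads mark separate sites or imprecise summits of weak entries was not tested.

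**Figure D2:**
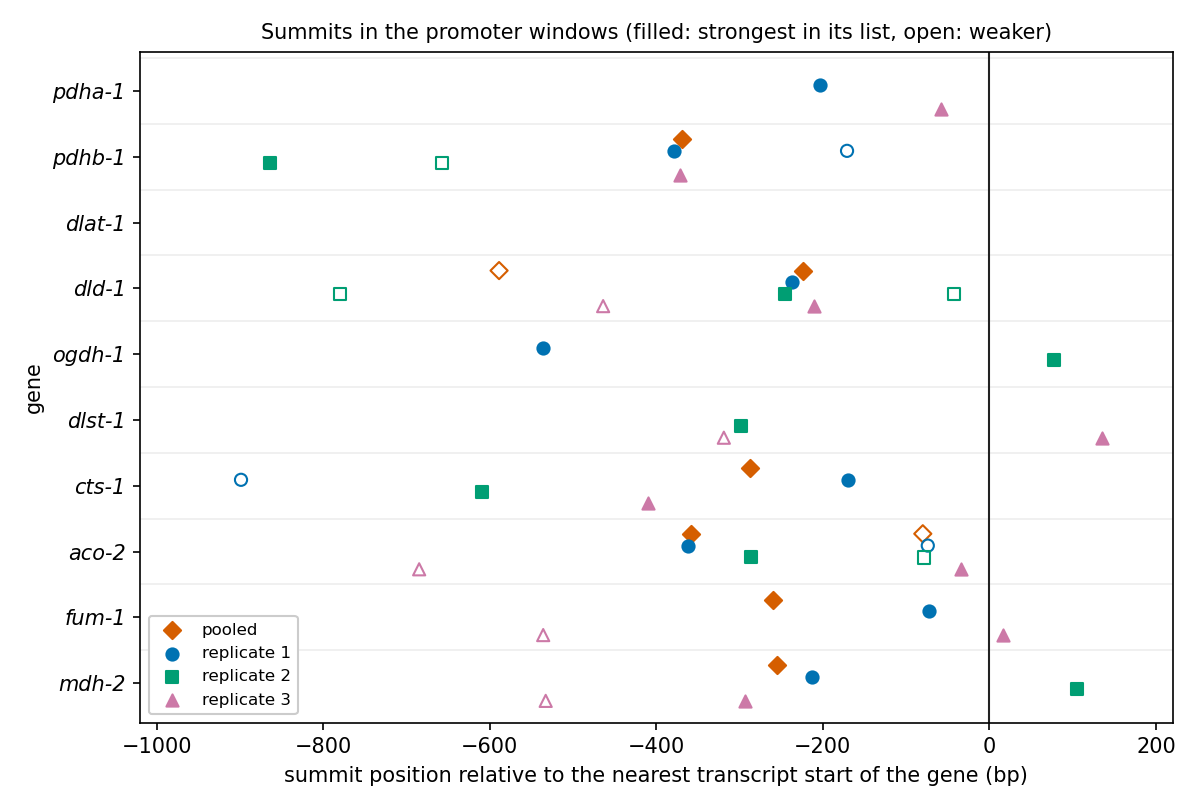
Position of every summit in the promoter windows of the 10 genes, in bp from the gene's nearest transcript start (vertical line), with filled symbols for the strongest peak of a list and open symbols for weaker ones. The strongest dld-1 summits fall between 211 and 246 bp upstream in all 4 lists, while those of cts-1 in the 3 replicates span 439 bp and dlat-1 has none.

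As a list, the 10 genes had pooled promoter peaks at 6 (60%), where 21.6% of all nuclear protein-coding genes had one. In replicates 1, 2 and 3 there were 8, 7 and 8 genes with a peak, against 39.2%, 37.3% and 40.8% of all genes. In every replicate list at once there were 5 (dld-1, aco-2, cts-1, mdh-2 and pdhb-1) against 14.8% of all genes. dld-1, chosen for its peak, is in each of these counts. Without it, 5 of 9 genes had a pooled peak, and 7, 6 and 7 of 9 had one in replicates 1, 2 and 3. These counts are descriptions, with no test. They include entries that the authors deposited as background, and pdha-1 and aco-2 each have 4 annotated starts, which widens the sequence searched for them.

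With the 1950 strongest peaks of each replicate, 5 times the length of the thresholded list, only dld-1 of the 10 had a promoter peak in all 3, against 2.05% of all genes. The larger counts in the full lists thus rest on entries beyond those ranks in at least 1 library. Ranking genes without a peak after all others, the median pooled rank was 7879.5 over the 10 genes and 9080 over the 9 other than dld-1, and the median gene of all protein-coding genes had no pooled peak. Among genes with a pooled peak, the median rank was 5263 over the 5 other than dld-1 and 4137.5 over all 4306 genes. In replicate 1 it was 9367 over the 7 with a peak and 10175 over all genes with one, in replicate 2 it was 3870.5 over 6 and 10817, and in replicate 3 it was 4298 over 7 and 11460.5. Among genes with a peak, the median rank of listed genes other than dld-1 was thus weaker than that of all in the pooled list. It was stronger in each replicate list, with no test.

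**Figure D3:**
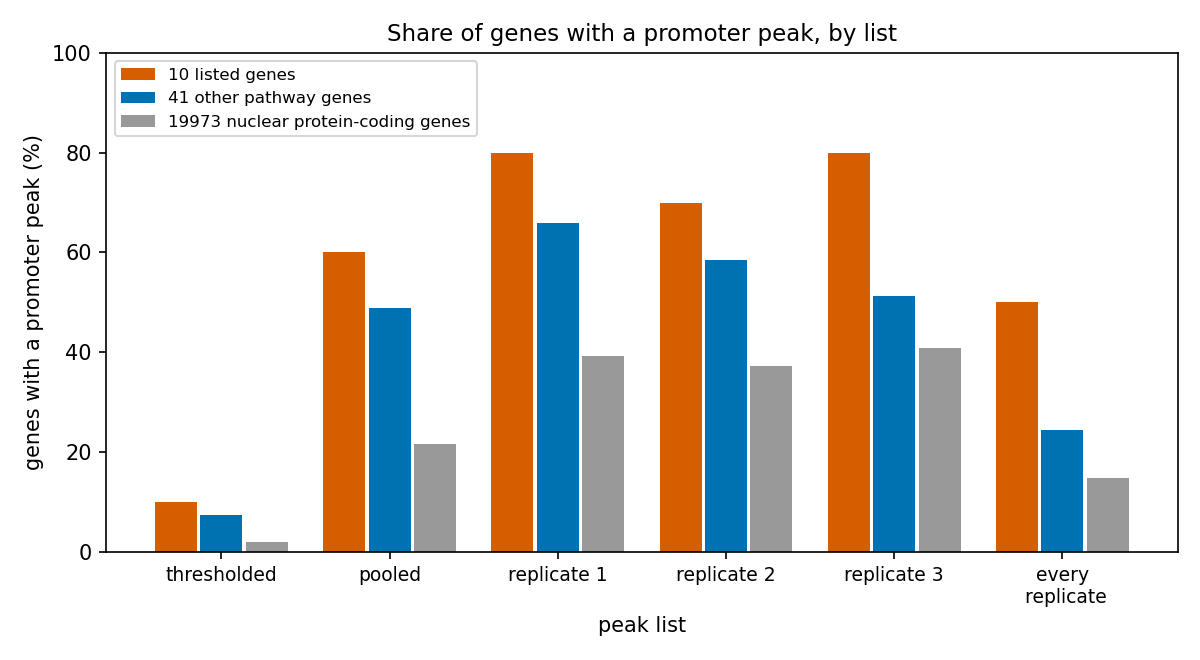
Percent of genes with a promoter peak in each list for the 10 genes, 41 other pathway genes and all 19973 nuclear protein-coding genes; the last set of bars counts genes with a peak in all 3 replicate lists. In the thresholded list the bars stand at 10%, 7.32% and 2.00%, and the first of these is dld-1 alone.

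The genes around these enzymes were taken from a list of 44 symbols, of which 41 matched the annotation. Of the 41, 3 had a thresholded promoter peak (7.32%, against 2.00% of all protein-coding genes): sdhb-1, gcst-1 and mpc-1. Pooled peaks were found at 20 (48.8%, against 21.6% of all protein-coding genes) and peaks in every replicate list at 10 (24.4%, against 14.8%). The 3 genes with thresholded peaks were also those with a promoter peak among the 1950 strongest of all 3 replicates. The thresholded list was derived from the same replicates, so this is not separate support. The 3 genes belong to 3 different steps: entry of pyruvate, a second user of dihydrolipoamide dehydrogenase, and the cycle itself.

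Pyruvate reaches the complex through the mitochondrial pyruvate carrier, of which mpc-1 encodes a subunit. Its peak lay on chromosome III from 4412596 to 4413025, with the summit 646 bp upstream of the start. The peak had a signal of 59 at rank 203 of the pooled list, and no other gene searched shared it. mpc-1 ranked 262nd, 370th and 189th in replicates 1, 2 and 3, with summits spread over 113 bp. mpc-2, for the other subunit, had no pooled peak. Of the regulators, pdhk-2, for pyruvate dehydrogenase kinase, which inactivates the complex, had a pooled peak at rank 6110, and pdp-1, for the phosphatase that reverses this, had none. pyc-1, for pyruvate carboxylase, which makes oxaloacetate, had a pooled peak at rank 3078 inside a coding exon of its longer transcript.

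Of 8 genes for other complexes that depend on dihydrolipoamide, gcst-1 had a thresholded peak, where 2.00% of all protein-coding genes had one. Pooled peaks were found at 2 of the 8, gcst-1 and bckd-1A, a share close to the 21.6% of all protein-coding genes. The bckd-1A peak was weak, at rank 6451. No test was applied to these counts. gcst-1 encodes the aminomethyltransferase (T protein) of the glycine cleavage system, which uses the same E3 as pyruvate dehydrogenase. Its peak, on chromosome V from 5712144 to 5712573, had a signal of 73 at rank 172, 569 bp upstream of the start. It ranked 162nd, 129th and 298th in replicates 1, 2 and 3, with summits spread over 68 bp. The other genes of that system in the list, gldc-1, gcsh-1 and gcsh-2, had no pooled peak. lias-1, for the synthase that makes the lipoyl group, had a pooled peak at rank 819 with a signal of 25 and a −log10 q of 2.1.

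Among 15 genes for other steps of the cycle, sdhb-1 had the thresholded peak (6.67%, against 2.00% of all protein-coding genes). Pooled peaks were found at 7 of the 15 (46.7%, against 21.6%). sdhb-1 encodes the iron-sulphur subunit of succinate dehydrogenase, which is also complex II of the respiratory chain. Its peak, on chromosome II from 9352768 to 9352961, had a signal of 121 at rank 92, 153 bp upstream of sdhb-1 and 116 bp upstream of the divergent gene cup-15. It ranked 125th, 111th and 87th in replicates 1, 2 and 3, with summits spread over 35 bp, as at dld-1. Next came sucl-1 at rank 865 and suca-1 at rank 1463, both for subunits of succinyl-CoA synthetase. The suca-1 summit lies nearer the start of the ncRNA gene F47B10.12 (59 bp) than that of suca-1 (167 bp). An isocitrate dehydrogenase gene, idh-1, followed at rank 1470. Of the other isocitrate dehydrogenase genes listed, idhb-1 had a pooled peak at rank 7339, and idha-1, idhg-1, idhg-2 and idh-2 had none. The list does not separate mitochondrial from cytosolic forms of this enzyme. Of the remaining succinate dehydrogenase genes, mev-1 had a pooled peak at rank 10598, and sdha-1, sdha-2 and sdhd-1 had none.

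**Figure D4:**
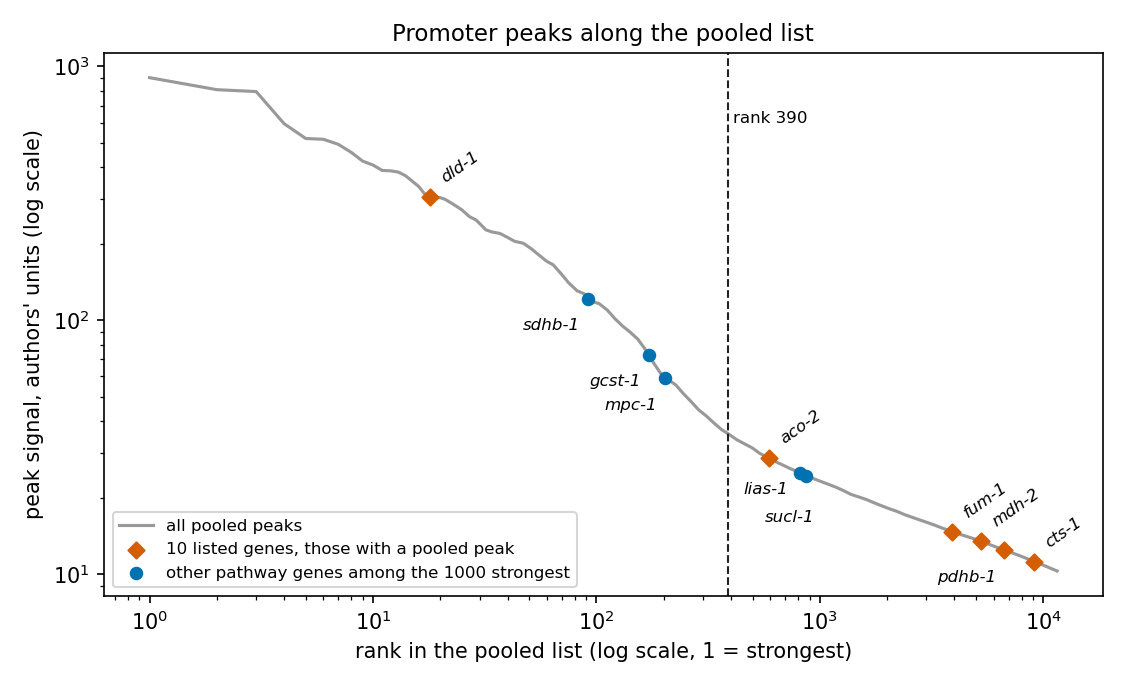
Peak signal in the authors' units against rank in the pooled list, both on log axes, with the 6 of 10 genes that had a pooled promoter peak and the other pathway genes among the 1000 strongest. The dashed line is rank 390: dld-1 (signal 304), sdhb-1 (121), gcst-1 (73) and mpc-1 (59) lie to its left, and aco-2 (28.7) is the nearest listed gene on its right.

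Of the 4 thresholded pathway summits, those of mpc-1 and sdhb-1 had CGTAAATC close by, and those of dld-1 and gcst-1 did not. No word of the 5 searched lay within 60 bp of the gcst-1 summit. CGTAAATC was centred 10.5 bp from the mpc-1 summit and 7.5 bp from the sdhb-1 summit, and it was not found within 50 bp of any of the 6 pooled summits of the 10 genes. It lay within 50 bp of 149 of the 364 nuclear thresholded summits (40.9%), of 3.46% of nuclear pooled summits, and in 1.74% of the 300 bp windows from 250 bp upstream to 50 bp downstream of all protein-coding starts. The shorter CGTAAA was found within 50 bp of 48.1% of nuclear thresholded summits and in 12.9% of the 300 bp windows. At dld-1 it was centred 49.5 bp downstream of the pooled summit, so that its last bases passed the 50 bp limit. Within 100 bp of the summit CGTAAA was present at dld-1, at 57.4% of nuclear thresholded summits and at 12.3% of nuclear pooled summits.

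Relative to the summits of the replicates, this CGTAAA was centred 62.5 bp from that of replicate 1, 71.5 bp from that of replicate 2 and 36.5 bp from that of replicate 3. A second CGTAAA lay nearer the gene, centred 54.5 bp upstream of the start. On the other side of the dld-1 summit, centred 33.5 bp away, lay CGACACTC, which holds both CGACAC and ACACTC. Within 50 bp, CGACACTC was found at 9.89% of nuclear thresholded summits, at 0.565% of nuclear pooled summits and in 0.906% of the 300 bp windows. CGACAC alone was found at 26.4% of nuclear thresholded summits, 4.77% of nuclear pooled summits and 7.0% of the windows, and ACACTC at 18.7%, 4.34% and 10%.

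At mpc-1 the CGACAC begins in the last base of CGTAAATC, and at sdhb-1 ACACTC follows CGTAAATC after 1 base. Neither arrangement was found at dld-1, where the matches lie on both sides of the summit. Of the 189 nuclear thresholded summits with no CGTAAA within 50 bp, dld-1 among them, 33 (17.5%) had CGACAC or ACACTC, against 121 of all 364 (33.2%). ACACTC was also centred 17.5 bp from the weak cts-1 summit, and none of these letters lay within 50 bp of the summits of aco-2, fum-1, mdh-2 or pdhb-1. A match describes letters in a window and does not show what was bound there.

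The protein-coding genes whose ranks were most like those of dld-1 over the pooled list and the 3 replicate lists were rps-24, for a protein of the small ribosomal subunit, Y59E9AL.36 and nbet-1, all on chromosome IV. Likeness was the sum of absolute differences in log2 rank over the 4 lists, 1.22 for rps-24 and 1.32 for the other two, which share a peak. rps-24 ranked 22nd in the pooled list and 21st, 23rd and 24th in replicates 1, 2 and 3. The other two ranked 20th, 16th, 27th and 20th. None of these is a gene of pyruvate oxidation or the citric acid cycle in the lists used here.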

How the data were processed

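Per the deposited description files, the authors called peaks on each replicate's alignment and on the 3 alignments together (the pooled list), against 1 control alignment, and derived the thresholded list by the irreproducible discovery rate. For the aligner, the caller, its settings and the cutoff, no value was given in the sources used here. Signal (column 7) and −log10 q (column 9) are the caller's values, as deposited. The lists hold no read counts, which leaves depth unknown and signals without an interval.

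The 5 ce11 lists were read with Python 3.11.15. The 5 ce10 lists were not used. No peak ended beyond a chromosome of the WBcel235 reference (RefSeq), which gave the sequences. Transcript starts came from Ensembl release 115, without 15363 piRNA genes. The summit was column 2 plus column 10, written 1-based. The assignment of peaks to starts was tested on simulated data.

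The genes and lists were chosen with earlier results of these data known. Named were the 10 genes, genes sharing their strongest peaks, other pathway genes with a thresholded peak, the 4 best-ranked of each group of that list, and the 3 genes most like dld-1; others were named after their values were seen. Windows, overlap, list depth, nearest starts and replicates were varied.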

Additional observations from a re-analysis of the deposited data

How the results depend on the processing

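The single thresholded peak, at dld-1, was kept under all 4 alternatives tried. At rank 18, 224 bp upstream and with no other protein-coding gene in reach, it could not be lost under them. The pooled count of the 10 genes stayed between 4 and 6, but the share of all genes under these alternatives was not computed. The count in every replicate list was less stable. From 5 it went to 2 (dld-1 and aco-2) with a window of 500 bp upstream to 100 bp downstream (7.37% of all protein-coding genes). It went to 3 with only the nearest protein-coding start (11.5% of all genes). With the 1950 or the 390 strongest peaks of each list it was 1 (dld-1), against 2.05% and 1.25% of all genes. Leaving out a replicate asks for a peak in 2 lists rather than 3, which cannot lower the count. The count then lay between 6 and 7, against 21.1% to 22.7% of all genes. Among the other pathway genes, the thresholded count of 3 fell to 1 (sdhb-1) with the narrower window. Their pooled count of 20 fell to 13 in the 5766 strongest peaks. For these thresholded and pooled changes the share of all genes was not computed. Their count of 10 in every replicate list fell to 3 with the 1950 or the 390 strongest peaks, against the same 2.05% and 1.25%. Without replicates 1, 2 and 3 in turn it was 12, 16 and 19, against 21.1%, 22.7% and 21.5% of all genes. With any overlap of at least 1 bp, idha-1 joined the thresholded genes. The aco-2 summit, 359 bp upstream of the nearest start (-359), lies at 355 bp from the outermost start. Within 25 bp of the strongest pooled summit none of the 10 genes had CGTAAA. Within 100 bp 1 of the 10 had it (dld-1), and both windows were chosen after seeing the data. The causes were not tested. No paired analysis was possible because there is 1 group. Without read counts, an absent entry does not show that a promoter was unbound.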

Other observations

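Cytosolic or glyoxylate counterparts of the cycle and genes for its refilling, 11 in the list, had no thresholded promoter peak, where 2.00% of all protein-coding genes had one, and had pooled ones at 7 (63.6%, against 21.6%). The best-ranked were mdh-1, for cytosolic malate dehydrogenase, at rank 3859 inside its first coding exon, got-2.2, an aspartate aminotransferase gene, at rank 3889, and pck-1 and pck-2, for phosphoenolpyruvate carboxykinase, at ranks 4546 and 5213. The got-2.2 summit lies nearer the start of the ncRNA gene C14F11.15 (194 bp) than that of got-2.2 (315 bp). Of the 11 genes, pck-2 alone had a promoter peak in every replicate list (9.09%, against 14.8% of all protein-coding genes). Both members of the malate dehydrogenase pair thus had weak pooled entries, at rank 3859 for mdh-1 and rank 5263 for mdh-2, and of the aconitase pair aco-2 ranked 590th and aco-1 5378th.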
